A study of Mus musculus with 8 samples.

Results

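The Hist1h genes are the replication-dependent histone genes of mouse chromosome 13, taken here as all genes of that chromosome whose symbol or synonym begins with Hist1h. A table of RefSeq genes on GRCm38.p6 (the mm10 assembly) held 56 of them among 49943 genes, and 55 of the 56 belonged to its 26219 genes with curated transcripts. The older Hist1h names are used because they show the histone class; H1f5, for example, is the current symbol of Hist1h1b. The members comprised 6 H1, 15 H2A, 15 H2B, 9 H3 and 11 H4 genes, with Hist1h2aj and Hist1h2al annotated as pseudogenes.

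Chromatin immunoprecipitation sequencing had been carried out on mouse neuronal stem cells, described as lacking p16Ink4a and p14Arf, that stably carried a transduced wild-type H3.3 or H3.3K27M, a histone H3.3 with methionine in place of lysine 27. The label of negative p16Ink4a and p14Arf applied to both genotypes, and the promoter driving the transgene and the number of clones were not given in the sources used here. All samples were recorded with EGF and bFGF at 20 ng/ml each and with fixation in 1% formaldehyde for 15 min. There were 8 samples, 1 library for each genotype and each of H3K4me3, H3K27ac, H3K27me3 and input; the 6 immunoprecipitated libraries were used. Each group was a single library, so differences are described without a replicate check, a test or a p-value.

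Replication-dependent histones are made in bulk during S phase to package newly copied DNA. Their genes are short and mostly without introns, and their mRNAs end in a stem-loop instead of a poly(A) tail. H2A and H2B genes often lie head to head and share the stretch between their starts. The histone locus body, built around NPAT, forms at the clusters and couples their transcription to cyclin E and CDK2. H3K4me3 marks the starts of active or poised genes, H3K27ac marks active promoters and enhancers, and H3K27me3 is the repressive mark written by Polycomb repressive complex 2, the complex that H3.3K27M inhibits. Cells of many cycle stages are mixed in such cultures, so fewer cells with a mark and less of the mark per cell cannot be told apart.

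The median member was 489 bp long, and 6 genes were longer than 2 kb. The cluster fell into separate blocks. The first held 24 genes, from Hist1h2bl to Hist1h2bj (chr13:21715711-22043658, 328 kb). The second began 1.49 Mb further on and held 29 genes, from Hist1h4h to Hist1h1a (chr13:23531044-23764412, 233 kb). The testis pair Hist1h2ba and Hist1h2aa followed at chr13:23933725-23934913, and the pseudogene Hist1h2al lay far off at chr13:51200084-51203066. In 10 H2A/H2B pairs the genes pointed away from each other with 164 to 281 bp between their starts.

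The promoter sequences showed how the histone classes differ, and the genes printed here are those on which the results turn. They include the densest member (Hist1h1b) and the H1 gene with H3K27ac in the K27M library alone (Hist1h1c). Hist1h2ac is an H2A gene beside the region with the strongest drop in mean H3K27ac density. An H2B and an H3 gene follow, then H4 genes with H3K27ac in both libraries (Hist1h4i, Hist1h4k) or in wild type alone (Hist1h4d, Hist1h4f). Each is the 150 bases before the start, 5′ to 3′ on the gene's strand, from RefSeq GRCm38.p6. Capitals mark, on either strand, the 5 motifs counted in the next paragraph.
Hist1h1b (chr13:21780626-21780775, minus strand): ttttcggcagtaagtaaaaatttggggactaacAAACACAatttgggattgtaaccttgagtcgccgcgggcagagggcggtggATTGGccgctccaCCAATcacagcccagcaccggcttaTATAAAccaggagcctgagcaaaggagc
Hist1h1c (chr13:23738657-23738806, plus strand): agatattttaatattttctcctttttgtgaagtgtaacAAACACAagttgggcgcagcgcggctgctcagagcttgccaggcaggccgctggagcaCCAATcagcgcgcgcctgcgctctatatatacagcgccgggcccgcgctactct
Hist1h2ac (chr13:23683960-23684109, minus strand): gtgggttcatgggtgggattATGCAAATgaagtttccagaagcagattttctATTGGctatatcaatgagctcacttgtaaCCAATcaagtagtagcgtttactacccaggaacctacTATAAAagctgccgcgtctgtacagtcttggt
Hist1h2bk (chr13:22035671-22035820, plus strand): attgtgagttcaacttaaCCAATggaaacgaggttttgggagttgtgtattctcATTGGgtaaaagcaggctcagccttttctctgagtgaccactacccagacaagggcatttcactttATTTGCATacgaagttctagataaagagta
Hist1h3b (chr13:23752195-23752344, plus strand): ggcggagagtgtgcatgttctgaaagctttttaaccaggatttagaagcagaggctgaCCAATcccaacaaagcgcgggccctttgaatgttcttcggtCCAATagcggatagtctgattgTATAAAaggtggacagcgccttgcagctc
Hist1h4i (chr13:22041363-22041512, minus strand): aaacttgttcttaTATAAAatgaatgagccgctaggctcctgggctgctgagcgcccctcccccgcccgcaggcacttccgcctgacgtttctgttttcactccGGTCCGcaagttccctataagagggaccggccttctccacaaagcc
Hist1h4k (chr13:21750554-21750703, minus strand): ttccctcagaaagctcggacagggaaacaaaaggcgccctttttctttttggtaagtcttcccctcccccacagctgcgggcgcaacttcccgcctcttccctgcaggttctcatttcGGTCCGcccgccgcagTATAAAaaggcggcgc
Hist1h4d (chr13:23581418-23581567, plus strand): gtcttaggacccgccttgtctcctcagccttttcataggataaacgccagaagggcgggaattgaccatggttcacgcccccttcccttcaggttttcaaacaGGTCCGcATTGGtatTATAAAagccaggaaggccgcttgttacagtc
Hist1h4f (chr13:23551669-23551818, minus strand): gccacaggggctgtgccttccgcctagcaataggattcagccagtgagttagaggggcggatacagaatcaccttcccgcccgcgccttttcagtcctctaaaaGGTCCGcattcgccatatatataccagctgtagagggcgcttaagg

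The motifs were counted in windows of 250 bases before to 50 after each start, on both strands, in 52 starts of the 51 members that the table covered. The windows of divergent pairs overlap, so the same site can count for both genes, and duplicated promoters each count. CCAAT, bound by NF-Y, occurred at 44 of 52 member starts (84.6%) against 37.4% of all 32817 promoters. It was present at every H1, H2A, H2B and H3 start in the table and at 3 of 11 H4 starts. GGTCCG, the core of an H4 promoter element, showed the opposite division, with 10 of 11 H4 starts, 1 H2B start and 1 H3 start, or 23.1% of member starts against 8.25% of all promoters. AAACACA, an element known from H1 promoters, occurred at 5 of 6 H1 starts, 2 H2A starts and 2 H2B starts (17.3% against 7.19%). The octamer ATTTGCAT, bound by Oct1, occurred at 5 H2A and 6 H2B starts and in no H1, H3 or H4 window (21.2% against 1.74%). These starts hold fewer separate octamers, since the same bases count for both genes in Hist1h2ah/Hist1h2bk, Hist1h2ae/Hist1h2bg and Hist1h2ba/Hist1h2aa. TATAAA was found somewhere in the windows of 31 member starts, 59.6% against 13.6%. It was not always near the gene's own start. In Hist1h2bk, for example, it began at position -198 on the opposite strand, and in Hist1h4a at position 41. CCAAT overlapped GGTCCG once, in Hist1h3i, and no other motifs overlapped. The median GC content of the member windows was 45.2%, against 52.7% for all promoters, but they held more CpG dinucleotides (median 10.5 against 7).

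Most Hist1h genes carried H3K4me3 over the gene or within 1 kb of it, and on that rule both libraries marked the same genes. A gene counted as marked when an interval of the library overlapped its span plus 1 kb on either side. By this rule 42 of 56 members had H3K4me3 in wild type and the same 42 had it in K27M, against a background of 53% and 53.4% of all curated genes. Over all genes 98.1% of those marked in wild type were also marked in K27M, 1.03% of genes were marked in wild type alone and 1.47% in K27M alone, and none of the members was marked in a single library. All 9 H3 genes were marked, as were 8 of 11 H4, 11 of 15 H2B, 10 of 15 H2A and 4 of 6 H1 genes, with the same counts in both genotypes. With the gene span alone 39 members had H3K4me3 in wild type and 40 in K27M. The shares over all curated genes were not matched for gene length, and longer genes have wider windows that can catch more intervals.

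H3K27ac was found at 43 members in wild type and at 39 in K27M, against 49.1% and 41.4% of all curated genes. The lists shared 36 members, so 83.7% of the genes acetylated in wild type were also called in K27M, against 83.1% over all genes. That share was close to the background, but the classes differed. Among H4 genes 9 of 11 were marked in wild type and 4 of those 9 in K27M. H3 genes went from 9 to 8, H2A genes stayed at 10 with 9 in common, and H1 and H2B genes went from 4 to 5 and from 11 to 12. No member had an H3K27me3 interval in either library, where 30.1% and 9.55% of all curated genes had one. With a flank of 5 kb the members still had none. The shares over all genes include longer genes with wider windows, so they are not a like background for short members.

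**Figure D1:**
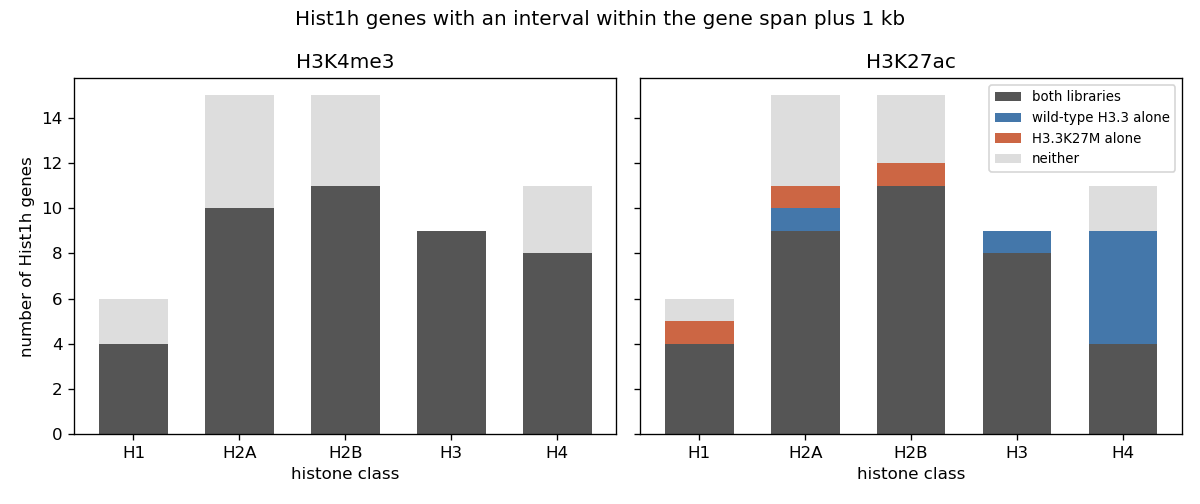
Number of Hist1h genes (vertical axis) by histone class with an H3K4me3 (left) or H3K27ac (right) interval in both libraries, in 1 library alone or in neither. H3K4me3 bars contain no gene marked in a single library, and 5 H4 genes had H3K27ac in wild type alone.

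H3K27ac was in wild type alone at 5 H4 genes: Hist1h4b, Hist1h4d, Hist1h4f, Hist1h4h and Hist1h4n. At Hist1h4b a wild-type H3K27ac interval of 1967 bp had a mean tag density of 29.1 and a highest of 43 tags per bin, and the nearest K27M interval was 2610 bp from the gene. H3K4me3 at the same gene was called in both libraries, with a highest density of 44 in wild type and 52 in K27M. At Hist1h4f the highest H3K27ac density in wild type was 50 and H3K4me3 went from 38 to 64. At Hist1h4d the wild-type maximum of 55 came from an interval in its flank (chr13:23582858-23583905), shared with Hist1h2be. The wild-type H3K27ac interval over Hist1h4d itself had a highest density of 30, and H3K4me3 went from 46 to 63. These genes thus kept their H3K4me3 interval and had no H3K27ac interval in K27M. The H3K27ac list of K27M began higher, with a 5th percentile of mean density of 25.5 against 17.0 in wild type. The wild-type interval over Hist1h4d, with a mean of 21.0, lay below 25.5, as did those near Hist1h4h (20.1) and Hist1h4n (19.6). The densest wild-type intervals at Hist1h4b (29.1) and Hist1h4f (29.3) lay above it. Whether weak wild-type intervals went uncalled in K27M without a change was not tested.

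Hist1h4h and Hist1h4n were marked through their flanks. At Hist1h4h the wild-type H3K27ac interval lay 913 bp from the gene with a highest density of 23, and there was no H3K4me3 interval in either library. At Hist1h4n the H3K27ac interval lay 994 bp away with a highest density of 22, and the nearest H3K4me3 interval 895 bp away in wild type and 875 bp in K27M. Their merged H3K4me3 region, split in wild type, had a highest density of 34 in both libraries. The remaining genes with H3K27ac in wild type alone were the neighbours Hist1h2af and Hist1h3g, an H2A and an H3 gene that shared an interval with a highest density of 52. Over all curated genes 8.31% had H3K27ac in wild type alone.

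The 7 genes with H3K27ac in wild type alone had highest wild-type densities of 22 to 55 (median 50), and the 36 genes called in both had 35 to 146 (median 90.5). The ranges overlapped between 35 and 55, the 55 being that of the flank interval of Hist1h4d. Of the 7, 6 lay in the second block and 6 of the 7 carried H3K4me3 in both libraries. The H4 genes called in both had wild-type maxima of 53 (Hist1h4k), 76 (Hist1h4j), 132 (Hist1h4a) and 143 (Hist1h4i), and 36, 45, 92 and 89 in K27M. GGTCCG was found in the window of each H4 gene in the table except Hist1h4a, which was called in both libraries.

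Hist1h1c, Hist1h2ak and Hist1h2bn had H3K27ac in K27M alone, as did 0.626% of all curated genes. Hist1h1c, which encodes the linker histone H1.2, had an interval of 974 bp that lay mostly upstream and reached over its start (chr13:23737906-23738879) with a mean density of 43.6 and a highest of 66. The nearest wild-type H3K27ac interval was 1497 bp away and the nearest wild-type H3K4me3 interval 1482 bp away, so neither lay within the flank of 1 kb. The divergent pair Hist1h2ak and Hist1h2bn shared a K27M interval with a mean of 28.3 and a highest of 33, and their nearest wild-type H3K27ac intervals lay 1512 and 2211 bp away. None of these 3 genes had H3K4me3 in either library.

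Altogether 14 members had no H3K4me3 interval in either library. They were Hist1h2ak, Hist1h2bn, Hist1h2bq, Hist1h2ao, Hist1h4m, Hist1h2ap, Hist1h2br, Hist1h4h, Hist1h1t, Hist1h4c, Hist1h1c, Hist1h2ba, Hist1h2aa and Hist1h2al. Hist1h1t, Hist1h2ba and Hist1h2aa encode testis histones. Hist1h4c lay 10679 bp and Hist1h1t 8406 bp from the nearest wild-type H3K4me3 interval, and neither had H3K27ac in either library. Of the unmarked genes 5 form a duplicated stretch with Hist1h4n, around Hist1h2bq/Hist1h2ao/Hist1h4m and Hist1h2ap/Hist1h2br. The members of the duplicated H2B pair are printed to show that their 150 bases before the start are the same letter for letter.
Hist1h2bq (chr13:21810200-21810349, minus strand): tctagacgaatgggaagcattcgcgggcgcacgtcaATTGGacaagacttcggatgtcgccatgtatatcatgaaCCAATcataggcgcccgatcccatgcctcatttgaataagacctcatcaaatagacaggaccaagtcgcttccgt
Hist1h2br (chr13:21833593-21833742, plus strand): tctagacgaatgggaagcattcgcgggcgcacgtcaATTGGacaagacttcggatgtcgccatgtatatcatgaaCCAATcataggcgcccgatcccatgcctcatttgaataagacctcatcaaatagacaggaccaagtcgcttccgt

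The unmarked genes included more promoters with copies than the marked ones. Every run of 50 bases in the 300-base windows of Hist1h2bq and Hist1h2br recurred in another promoter of the table. The share was 86.9% for Hist1h2ao, 73.3% for Hist1h2ap, 94.0% for Hist1h4m and Hist1h4n and 11.6% for Hist1h4j and Hist1h4k, and it was 0 for the other members with a promoter in the table. Of 13 promoters of genes without H3K4me3, 5 shared such runs, against 3 of 38 promoters of genes with H3K4me3. The treatment of reads that match several places was not given in the sources used here, and the part of such copies in the missing intervals was not tested. CCAAT occurred in 32 of 38 promoters of genes with H3K4me3 (84.2%) and in 11 of 13 of genes without (84.6%). TATAAA occurred in 26 of 38 (68.4%) and 5 of 13 (38.5%).

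Divergent pairs were marked as units. In 6 of the 10 H2A/H2B pairs both genes had H3K4me3 in both libraries and in the other 4 neither had. For H3K27ac the counts were 6 pairs in wild type and 7 in K27M, and no pair had a single marked gene. Since both genes of a pair lie within the flank of each other, they usually share the same intervals.

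**Figure D2:**
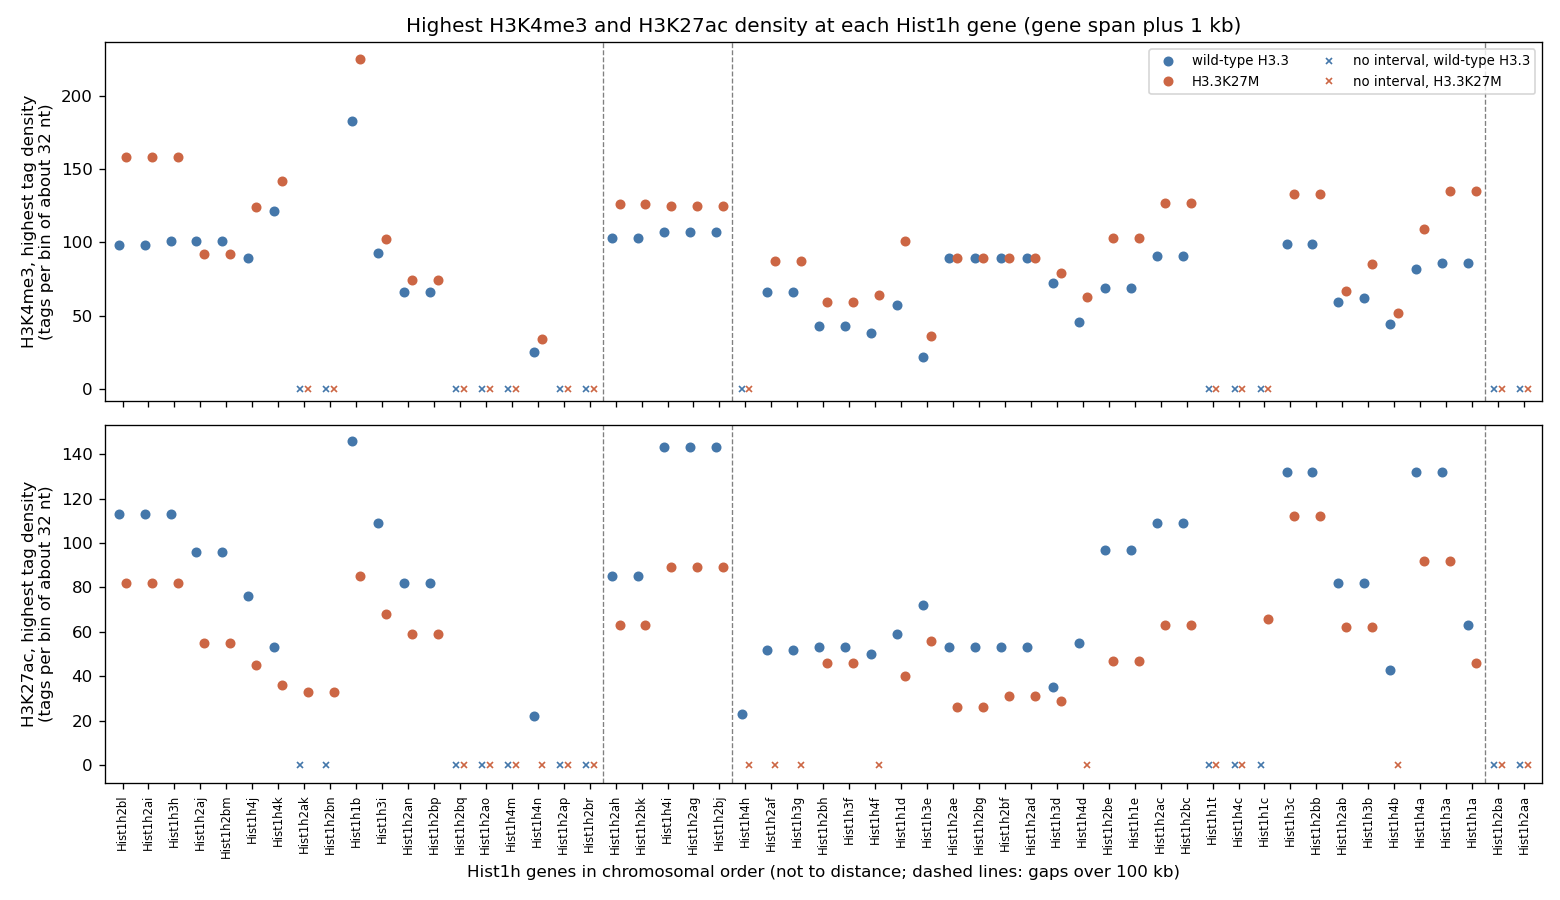
Highest tag density (tags per bin of about 32 nt, vertical axis) of H3K4me3 (top) and H3K27ac (bottom) intervals within 1 kb of each Hist1h gene in chromosomal order, without the distant pseudogene Hist1h2al; blue points are wild type, orange points K27M, and crosses at the base mark a library with no interval. H3K27ac points of K27M lie below those of wild type at all 36 genes called in both, and Hist1h1b has the highest H3K4me3 points, 183 and 225.

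The member genes lay under many short, closely spaced intervals that neighbours shared. The 56 genes were overlapped by 61 distinct H3K4me3 intervals in wild type and 49 in K27M, covering 71.7 kb in each library. Distinct H3K27ac intervals numbered 66 in wild type and 54 in K27M. Their length fell from 79.0 to 34.6 kb, or 43.8% of the wild-type length, against 39.9% over the whole lists. The median H3K27ac interval was 867 bp in wild type and 524.5 bp in K27M, while the median H3K4me3 interval was 951 and 1243 bp.

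In 3 of the 4 libraries the member intervals followed each other more closely than intervals in general. In wild type 85.2% of member H3K4me3 intervals had another interval of the library within 200 bp, against 36.7% of the list, and for H3K27ac the shares were 75.8% and 38.0%. In K27M they were 57.1% and 38.3% for H3K4me3 and 9.26% and 25.2% for H3K27ac, so there the member H3K27ac intervals stood apart more often than the list. CpG islands, as the deposited tables note them, touched 82.0% and 85.7% of member H3K4me3 intervals in wild type and K27M, against 53.8% and 55.7% of the lists. For H3K27ac these shares were 71.2% and 77.8% against 31.6% and 53.9%.

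Merging overlapping intervals of both libraries gave 46 H3K4me3 regions over member genes, of which 42 were called in both libraries, and 69 H3K27ac regions, of which 35 were. Of the 44 H3K4me3 regions with a wild-type interval 95.5% also held a K27M interval, against 84.3% in the genome, and among those at promoters 97.6%, against 92.3%. A further 31 H3K27ac regions were called in wild type alone and 3 in K27M alone. Of the 66 H3K27ac regions with a wild-type interval 53.0% also held a K27M interval, against 38.5% of all such regions in the genome. Among those that touched a promoter the shares were 53.1% for member regions and 59% for all. The H3K27ac regions found in wild type alone had mean densities of 16.6 to 33.7, and those in both libraries 20.1 to 72.7 in wild type. In the first block 16 of 25 wild-type regions were also called in K27M and in the second 19 of 41.

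H3K27ac was lower at the Hist1h genes in K27M, in length and in height, at the deposited scale. Density is the authors' mean tag count per bin of about 32 nt within an interval, and ratios are log2 of K27M over wild-type density after adding 1 to each, a scale on which changes of weak regions come out too small. Over the 35 shared regions the median ratio was -0.26 (quartiles -0.39 and -0.10), against 0.03 over all 14738 shared regions. The K27M density was lower in 28 of the 35, where 47.1% of all regions were lower. Past a threshold of 1.5-fold 2 regions were lower, against a background of 2.8%, and none was higher, against 4.9%.

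The highest density was read in the same regions. It was lower in K27M in 34 of 35 regions, against 72.3% of all, with a median ratio of -0.55 against -0.28 and median values of 76 in wild type and 46 in K27M. Its drop reached 1.5-fold in 17 regions, against 23.7% of all, and no region rose by as much, against 4.02%. The called length was shorter in K27M in all 35 regions, against 86.8% of all, with a median of 49.8% of the wild-type length against 68.0%. Among the genes the highest H3K27ac density was lower in K27M at each of the 36 called in both. Neighbouring genes often take the same interval, so these 36 are not separate places. The median share of the gene span plus flanks that was covered went from 83.5% to 39.8% over the genes called in each library. Over all curated genes called it went from 5.68% to 3.31%.

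The direction depends on how the libraries are scaled, because their depth is unknown and a change of scale between them cannot be told apart from a change over the whole genome. With sums of density set equal, the median ratio of the member regions was 0.83 and that of all regions 1.12. Such a scaling shifts every region of a library alike, so the difference of 0.29 between the medians stays the same by construction. In the 10 member regions whose called lengths differed by less than 1.5-fold the median was -0.28, against 0.04 for all such regions.

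**Figure D3:**
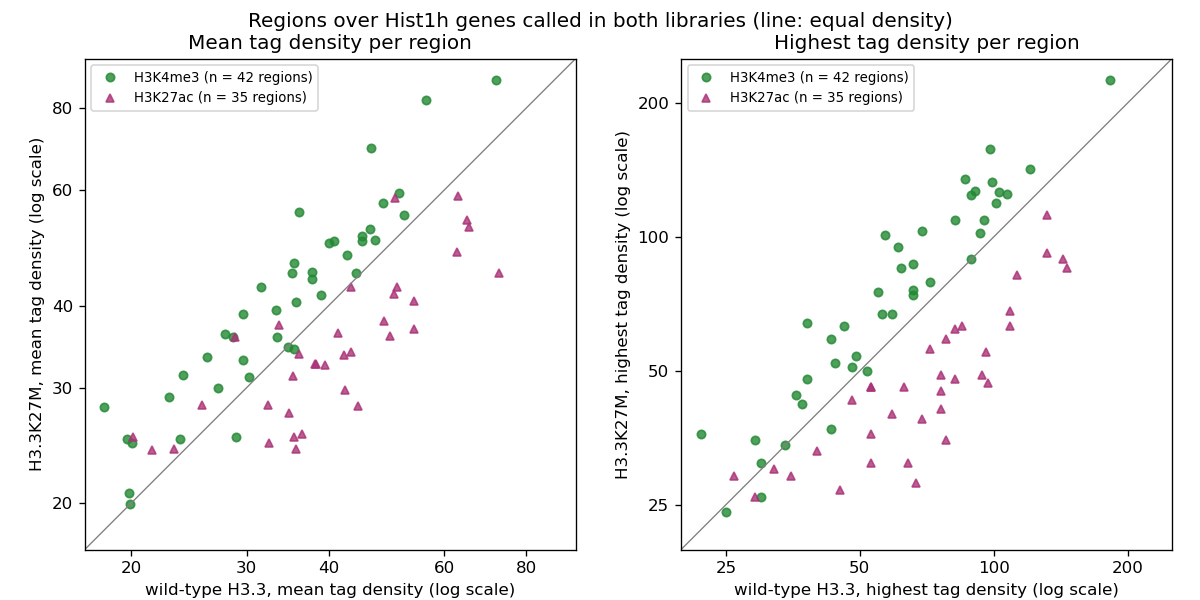
Wild-type density (horizontal axis) against K27M density (vertical axis), both on log scales in tags per bin, for regions over Hist1h genes called in both libraries, with the mean density at left and the highest at right; the line marks equal densities. H3K4me3 regions (circles) lie mostly above the line, 38 of 42 for the mean, and H3K27ac regions (triangles) mostly below it, 28 of 35 for the mean and 34 of 35 for the highest density.

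By mean density, though not by highest density, the strongest drop in H3K27ac was within the span of the H2B gene Hist1h2bc (chr13:23684453-23685944). Part of this region lay inside the 1 kb flank of the H2A gene Hist1h2ac. The mean density there was 72.7 in wild type and 44.8 in K27M (log2 ratio -0.69) and the highest 109 and 63. Its called length in K27M was 89.7% of that in wild type. This region was the densest H3K27ac region of the cluster in wild type. The adjoining region over Hist1h2bc (chr13:23686040-23686591) went from 44.4 to 28.1 (-0.64). At the same place H3K4me3 went from 51.2 to 59.4 and its highest density from 91 to 127, so the marks moved in opposite directions at the deposited scale. That H3K4me3 ratio, 0.21, was below the median of all shared H3K4me3 regions, and relative to that median it was -0.14. The promoter of Hist1h2ac printed above has the octamer, a CCAAT box on either strand and TATAAA.

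Next by mean density came the divergent pair Hist1h2bl and Hist1h2ai, with a region that went from 54.0 to 36.9 (-0.54). The H4 gene Hist1h4k went from 35.6 to 24.2 (-0.54). Both stood just short of the 1.5-fold limit, 0.58 on the log2 scale, and were not counted. By highest density the largest drop was in a region of Hist1h2ah and Hist1h2bk (chr13:22036125-22037321), from 67 to 28 (-1.23). At Hist1h4k the highest H3K27ac density was 53 and 36, while that of H3K4me3 was 121 and 142.

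At the other end, a region between Hist1h2bf, Hist1h2ad and Hist1h3d went from 20.1 to 25.2 (0.31), and one over the H3 gene Hist1h3b from 28.8 to 35.9 (0.30). The region shared by Hist1h4i, Hist1h2ag and Hist1h2bj went from 50.4 to 58.3 (0.21), but its highest density went from 143 to 89. A region of the H1 gene Hist1h1e went from 21.6 to 24.1 (0.16). In 3 of these 4 the highest density was lower in K27M, the exception being the region near Hist1h3d, where it was 26 and 29. In the order named, their called lengths in K27M were 37.2%, 29.9%, 44.8% and 27.3% of those in wild type. The means of the libraries thus cover unlike stretches, and a rise in mean need not be a rise at the same bases.

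H3K4me3 densities were higher in K27M at most Hist1h regions, but by less than elsewhere. Over the 42 shared regions the median ratio was 0.23 (quartiles 0.10 and 0.34), against 0.35 over all 17790 shared regions, and 38 of 42 were above 0, against 92.1% of all, with 4 below 0, against 7.89%. In K27M 2 regions were at least 1.5-fold higher, against 12.4% of all, and none was at least 1.5-fold lower, against 0.157%. By the highest density 6 were at least 1.5-fold higher, against 24.1%, and none lower by as much, against 0.86%. Its median ratio was 0.26 against 0.44, and it was lower in 4 regions, against 8.63%. The called length was longer in 21 regions and shorter in 21, where 41.9% of all were shorter. Relative to the median of all regions the member median was -0.13, and with equal sums of density it was -0.17 with -0.05 for all, so the direction depends on the scaling, which by construction leaves the order against all regions as it was.

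The member intervals were also less dense than the H3K4me3 list as a whole. Their median density was 33.9 in wild type and 39.4 in K27M, against 43.1 and 58.2 for the lists. For H3K27ac the members stood above the list in wild type (31.6 against 25.9) and below it in K27M (32.2 against 37.4). The H3K27ac lists differ in length, 39018 and 20040 intervals, and in their 5th percentile of density, 17.0 and 25.5, so the order of these medians shows no change at the members.

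The H1 gene Hist1h1b, which encodes H1.5, had the densest H3K4me3 of the cluster (chr13:21777918-21781519), with a mean of 71.9 in wild type and 88.2 in K27M and a highest density of 183 and 225. Its H3K27ac had the highest maximum of any member in wild type, and went from a mean of 62.8 to 48.3 and from a highest of 146 to 85. The next densest H3K4me3 regions in wild type belonged to the pair Hist1h2bl and Hist1h2ai (56.3 and 82.3, log2 ratio 0.54) and to Hist1h4i with its neighbours (52.0 and 55.0). By mean density, the densest H3K27ac regions in wild type were those described above at Hist1h2bc (72.7), then over Hist1h3i (65.4 in wild type and 52.7 in K27M) and over Hist1h3c and Hist1h2bb (64.9 and 53.9), an H3 and an H2B gene. The last of these kept the highest H3K27ac maximum in K27M, 112 after 132 in wild type.

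The largest H3K4me3 ratio was at Hist1h3a and Hist1h1a, an H3 gene and the H1 gene that encodes H1.1, which went from 36.1 to 55.5 (0.61). Hist1h3e followed with a short, weak region of 18.2 and 28.0 (0.59). The region over Hist1h2bl, Hist1h2ai and Hist1h3h went from 46.4 to 69.6 (0.58) and missed the threshold narrowly. The lowest were near Hist1h2bf and Hist1h2ad, 28.9 and 25.2 (-0.19), at Hist1h3g, 35.4 and 34.4 (-0.04), at Hist1h2an and Hist1h2bp, 34.8 and 34.6 (-0.01), and at Hist1h4d and Hist1h2be, 20.0 in both libraries. By class, the median H3K4me3 ratio ran from 0.15 for regions of H4 genes to 0.34 for those of H1 genes, with 9 and 4 regions. For H3K27ac the class medians lay between -0.28 for H2A and -0.20 for H3 genes, and regions shared between classes count in each.

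Around the gene start the K27M library had much less H3K27ac coverage than the wild-type library. Among 39 member starts with wild-type H3K4me3, 84.6% were covered by a wild-type H3K27ac interval at the start itself and 12.8% by a K27M interval. At 13094 other starts with wild-type H3K4me3 these shares were 56.1% and 29.7%. At 500 bp into the transcribed side, about where the median member ends, the K27M share at members was 69.2% and the wild-type share 92.3%. On the other side the K27M share reached 71.8% at 750 bp upstream, where wild type had 92.3%. Coverage in K27M was thus higher at these distances than at the start.

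H3K4me3 coverage of the member starts was similar in both libraries, 71.8% in wild type and 82.1% in K27M at the start, and 86.8% and 87.4% at other starts. A dip followed within the gene. At 200 bp past the start 46.2% of member starts were covered by wild-type H3K4me3 and 61.5% by K27M, against 90.8% and 90.1% of other starts. H3K27ac dipped at the same position, to 48.7% in wild type and 12.8% in K27M, against 68.7% and 54.2%. Starts of divergent pairs contribute the same intervals, so these shares rest on fewer than 39 separate places. The search for recurring runs of bases covered promoter windows and did not reach 200 bp past the start. Whether reads that match several places had a part in the dip was not tested.

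**Figure D4:**
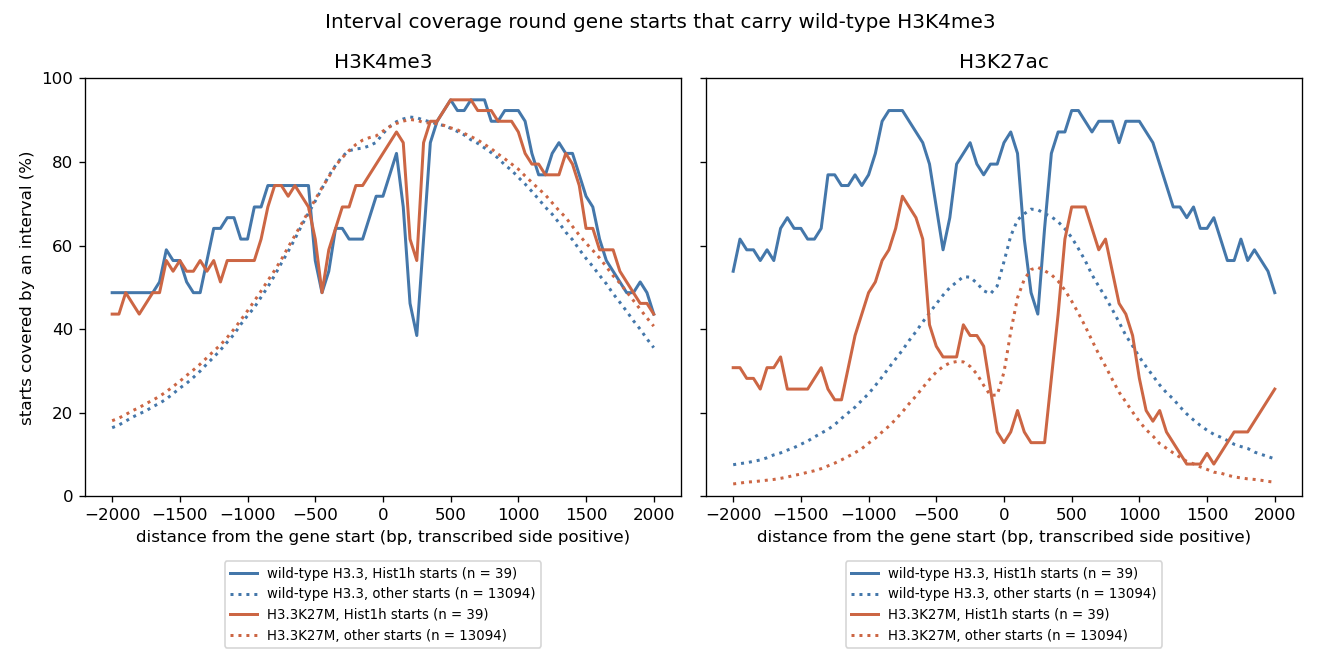
Percent of gene starts covered by an H3K4me3 (left) or H3K27ac (right) interval against distance from the start in bp, for 39 Hist1h starts (solid) and 13094 other starts (dotted), all with wild-type H3K4me3, in wild type (blue) and K27M (orange). In K27M the H3K27ac coverage of Hist1h starts falls to 12.8% at the start and rises to 69.2% at 500 bp, and in wild type it is 84.6% and 92.3%.

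Polycomb H3K27me3 was absent from the genes but not from the cluster. Between Hist1h2bl and Hist1h2aa, a span of 2.22 Mb, wild type had 16 intervals over 156 kb, or 7.04% of the span, and K27M 4 intervals over 31.2 kb, or 1.41%. The nearest lay 13.5 kb from a member in wild type, at Hist1h2bj, and 20.3 kb in K27M, at Hist1h2ah. The densest wild-type interval, at the serine protease gene Prss16 (chr13:21998400-22015599), had a mean density of 14.3, and the K27M interval there (chr13:21999200-22014799) had 4.16.

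Other histone genes were read beside the cluster from lists of related genes. The 14 replication-dependent genes elsewhere (Hist2h, Hist3h and Hist4h) had H3K4me3 at 7 genes in both libraries and H3K27ac at 7 in wild type and 6 in K27M, with median ratios per gene of 0.26 and -0.20. The corresponding medians per gene over Hist1h genes were 0.18 and -0.25. The values elsewhere rest on few places, since the 7 genes with an H3K4me3 ratio held 4 distinct ratios and the 6 with an H3K27ac ratio 3. Their extremes in H3K27ac were the H2aw and H2bu1-ps locus, 73.5 and 45.8 (-0.67), and H3c15, 36.4 and 41.0 (0.17). The 11 genes listed as replication-independent variants carried both marks in both libraries. Their median H3K4me3 ratio was 0.40 and their median H3K27ac ratio -0.27.

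The genes of the endogenous H3.3 stood among these variants. H3f3a went from 83.2 to 116 in H3K4me3 (0.47) and from 73.4 to 60.7 in H3K27ac (-0.27), and H3f3b from 122 to 161 (0.40) and from 68.5 to 47.3 (-0.52). The lowest H3K27ac ratios among the variants were those of H2aj (-0.55) and H2ax (-0.54), and the highest those of Macroh2a2 (0.61) and Macroh2a1 (0.41), which encode macroH2A. Genes for histone mRNA processing, the locus body, histone chaperones and the G1/S switch, 28 in all, had H3K4me3 at all 28 in both libraries and H3K27ac at 27 in both. Their medians were 0.36 for H3K4me3 and -0.01 for H3K27ac, near the 0.37 and 0.02 of all curated genes.

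Npat, whose protein seeds the locus body, had an H3K27ac ratio of 0.03 (48.3 and 49.4), and Slbp, whose protein binds the stem-loop, 0.10 (62.4 and 67.0). In this list the highest H3K27ac ratios were those of Chaf1b (0.77) and Hinfp (0.55), a chromatin assembly subunit and the factor of the H4 promoter element, and the lowest those of Rbbp4 (-0.44) and Lsm11 (-0.31). Of the 55 other curated genes inside the cluster span 11 had H3K4me3 (20.0%) and 9 H3K27ac (16.4%) in wild type, where all curated genes had 53% and 49.1%. The vomeronasal receptor genes of the Vmn1r family made up 36 of the 55, 0 of them with H3K4me3 and 1 with H3K27ac. Of the remaining 19 genes 11 had H3K4me3 (57.9%) and 8 H3K27ac (42.1%), a division made after the values were seen. Marks were also read at genes that mark cell types, by the same rule of gene span plus 1 kb. Several of these genes are long, so an interval counted there need not lie at the promoter. The 7 neural stem and progenitor markers Nes, Sox2, Fabp7, Pax6, Olig2, Msi1 and Hes5 had H3K4me3 in both libraries, and H3K27ac was at 7 in wild type and 6 in K27M, where Hes5 had none. Their median ratios were 0.38 for H3K4me3 and -0.41 for H3K27ac, the latter below the Hist1h genes. Of 5 microglial markers 1 had H3K4me3, as did 2 of 4 endothelial, 1 of 4 fibroblast and 4 of 4 neuronal markers, and H3K27ac in wild type was at 2, 1, 1 and 1 of them.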

How the data were processed

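Chromatin from 8 mouse samples was profiled with 1 library per genotype and mark. Groups came from the sample titles. The authors deposited 1 list of intervals per library. Per the submitters' processing notes BWA, SICER and mm10 were used; versions, call thresholds and any scaling of one library to another were not given in the sources used here. Per the file headers the deposited mean and highest values are a signal, the tag density per bin of about 32 nt. The depth of the libraries is unknown, so no counting interval could be given for a density.

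Python 3.11.15 with pandas 2.3.3 and numpy 2.4.6 was used. Intervals of both genotypes that overlapped by at least 1 bp were merged into regions, called shared when both libraries had an interval, with a length-weighted mean density and a pseudocount of 1. A gene was marked when an interval overlapped its RefSeq span plus 1 kb. The merging and ratio steps were tested on simulated data. A fold of 1.5 stood in for a call. The members, gene lists, motifs and rule for named genes (the 4 highest and 4 lowest ratios per mark, members marked in a single library, members without H3K4me3, members of the 3 densest regions and the extremes of each comparison list) were chosen with earlier results of these data known. Alternatives covered scaling, pseudocount, flank, overlap, fold and density floor. The input libraries were not used here, and 1 marker gene is not reported here.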

Additional observations from a re-analysis of the deposited data

How the results depend on the processing

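The median H3K4me3 ratio of the member regions, 0.23, became -0.13 relative to the median of all shared regions and -0.17 with equal sums of density, both reversed, and 0.065 with equal 5th percentiles of density. The median H3K27ac ratio, -0.26, became 0.83 with equal sums (reversed), -0.83 with equal 5th percentiles, -0.55 with the highest density and -1.10 with density times called length. These shifts moved the medians of all regions too (-0.05 and 0.19 for H3K4me3 and 1.12, -0.54, -0.28 and -0.57 for H3K27ac). The scalings shift all regions of a library alike, so they cannot change the order of members and all regions. The 2 regions with H3K4me3 at least 1.5-fold higher became 0 at 2-fold, 0 relative to the median and 6 by the highest density. The 2 with H3K27ac at least 1.5-fold lower became 0 at 2-fold and 17 by the highest density. The share of other genes in the span with wild-type H3K4me3 was 41.4% when the span ran to the distant pseudogene, as first planned, and 20.0% when it ended at Hist1h2aa, and for H3K27ac 37.5% and 16.4%; this alternative, the restriction to similar called lengths and the removal of promoters with copies were chosen after seeing the data. Counts of marked genes stayed within 1.5-fold for every flank, overlap and density floor tried: with the gene span alone 40 members had H3K27ac in wild type and 32 in K27M, and with a flank of 5 kb 48 and 42. No paired analysis was possible because each group had 1 library, and no replicate could be left out. Unknown depth limits every density ratio to a description of these libraries.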
